A study of Homo sapiens with 12 samples.

Results

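The response of NUP93 knockout cells to triptolide was measured in 4 of the 12 libraries of an mRNA sequencing series, 2 untreated and 2 treated. The cells were U2OS, a human osteosarcoma line, transfected for a short time with a plasmid carrying Cas9, a puromycin resistance gene and a guide RNA against NUP93 (NUP93-KO), then selected with puromycin and expanded as a pool, so that they were a mixture of edited and possibly unedited alleles and not a clone. Treated cells received 1 μM triptolide for 8 h. The other 8 libraries came from cells made in the same way with a nontargeting guide (NONT) or a guide against EXOSC5, a subunit of the RNA exosome (EXOSC5-KO), again 2 untreated and 2 treated for each, and they are used here where the response of NUP93-KO cells is set against theirs. Because cells had been counted and ERCC spike-in RNA added in proportion to their number, each value is a spike-in-normalised signal meant to follow the amount of a gene's mRNA per cell. Of 22379 genes in the table, 13811 passed a filter on low values, set at an average of 10 or more across the 6 libraries without drug, and were tested.

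Triptolide binds XPB, a helicase of the general transcription factor TFIIH, and blocks the start of transcription by RNA polymerase II. Once new mRNA is no longer made, the mRNA that remains is what has not yet decayed, so short-lived transcripts disappear early and long-lived ones stay. NUP93 is a scaffold protein of the nuclear pore, the channel through which mRNA leaves the nucleus. Mitochondria transcribe their own genome with a separate polymerase that does not need TFIIH.

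The guide is shown because it fixes where the targeted gene could be cut. Its sequence had 1 exact match on the chromosomes of GRCh38, at chr16:56748340-56748359 on the plus strand, with all 20 bases inside the coding part of exon 2 of 22 of NUP93. The capitals mark the adjacent PAM that Cas9 needs, which is not part of the guide. The nontargeting guide had 0 exact matches.
NUP93 guide: gaacttacaggagatccagcAGG
Nontargeting guide: cggcggtcacgaactccagc

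NUP93 mRNA itself (ENSG00000102900) had values of 1395 and 1432 in the untreated NUP93-KO libraries and of 801 and 1019 in the treated ones. Both untreated NUP93-KO values lay below the untreated NONT values of 1753 and 2489, and the treated values overlapped with those of NONT (1007 and 899). Since small insertions and deletions in an early exon need not change how much mRNA is present, this level says little about the loss of the protein, which these libraries do not measure. After triptolide 64.4% of NUP93 mRNA remained in NUP93-KO cells, a spike-in log2 fold change of −0.64 ± 0.20 (SE, limma adjusted p = 0.0119).

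The 4 NUP93-KO libraries were even in depth and scale. They held about 8.86 to 10.6 M (mega) reads each, as judged from the spacing of the lowest values, and 15867 to 16452 genes above 0. Replicates correlated at r = 0.968 (untreated) and 0.967 (treated) across genes, which are not replicates, and replicate 1 differed from replicate 2 by a median of −0.14 and −0.08 on the log2 scale. Of the markers of mesenchymal cells, VIM, COL1A1, SPARC and FN1 were at 12946 or more in each of these libraries. CDH2 was lower, at 990 to 1322, and RUNX2 had 318 and 321 without drug and 28.4 and 24.4 with it. CD3E, HBB and ALB of the blood and liver lineages were listed at 0 in all 4. In the same lineages PTPRC reached 4.57 and APOA1 9.12. Of the epithelial markers, EPCAM and CDH1 lay between 21.9 and 55.4 and KRT5 reached 3.83. KRT8, a keratin, was at 833 to 937, above RUNX2 in each library. The labels do not say whether replicates came from separate cultures, so that p-values measure only the spread between libraries, which may be technical. That spread was pooled over the replicates of all 12 libraries. It includes the untreated and treated NONT replicates, which differed by medians of −0.51 and 0.25 on the log2 scale.

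Triptolide lowered the mRNA pool of NUP93-KO cells and most of its genes. The summed values were 12.004 and 13.2 M in the untreated libraries and 8.22 and 8.79 M in the treated ones. Both treated sums lay below both untreated sums, and the treated mean was 67.4% of the untreated mean, with 62.1% to 73.2% when each treated library was divided by each untreated one (4 pairings). The exact two-sided permutation test gave p = 0.333, the smallest value that 2 against 2 libraries allow. In bulk libraries of counted cells, a pool that falls in every cell and one that is lost from some dying cells cannot be told apart.

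The median gene kept 52.9% of its untreated value, a log2 fold change of −0.92 with a range of −1.02 to −0.81 over the pairings, and 92.3% of genes lay below 0. The distribution was broad, with a lower quartile of −1.93 and an upper quartile of −0.35. Fold changes here are differences in log2(value + 1), which understate the change of genes with low values. On this scale 7603 genes were lower after limma and Benjamini-Hochberg adjustment at a threshold of 0.05, which is 55.1% of the genes tested, and 19 were higher (0.138%; 30 at an unadjusted p under 0.05). Less than 1% of the untreated amount was left for 134 genes, less than 10% for 1332 genes, less than 25% for 3356 genes and less than 50% for 6589 genes, as the ratio of the treated to the untreated mean.

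To ask which transcripts were kept or lost more than the rest, each library was centred on its median gene before the same test. Relative to the median gene, 3906 genes were retained (28.3%) and 3973 were lost (28.8%), and 5932 passed in neither direction. When the summed value of each library was set equal instead, 1922 genes were above and 5430 below 0, so the split between both directions depends on where 0 is placed. Retained genes kept a median of 85.7% of their untreated value and lost genes 15.9%. All 3973 lost genes were also among those that fell on the spike-in scale. Of the retained genes, 438 fell on that scale, 19 rose and 3449 passed in neither direction. The retained genes made up 63.0% and 63.2% of the summed values of tested genes in the untreated libraries and 79.4% and 80.0% in the treated ones. The share of the lost genes went from 19.7% in both untreated libraries to 6.84% and 6.62%.

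**Figure D1:**
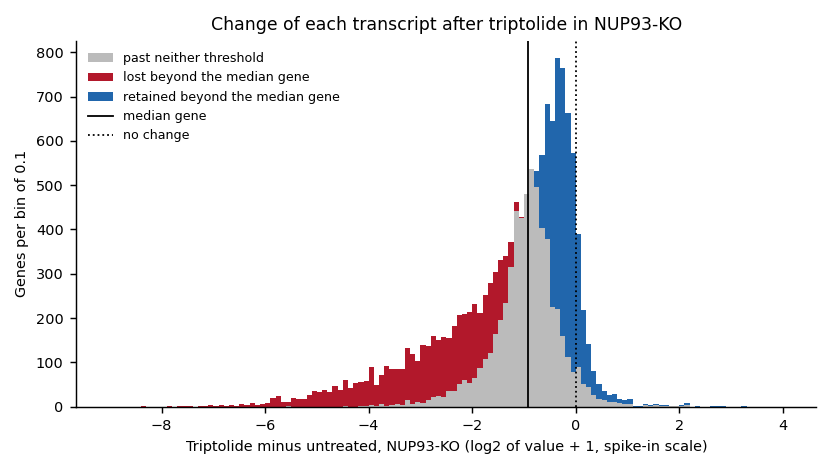
Distribution of the change after triptolide over 13811 genes in NUP93-KO cells, with the log2 change per gene on the spike-in scale on the x axis and the number of genes per bin of 0.1 on the y axis, stacked by class. The solid line marks the median gene at −0.92 and the dotted line no change, and the retained genes form a narrow peak between both while the lost genes reach far to the left.

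Among the transcripts that fell furthest were several of transcription factors. JUN, a subunit of the AP-1 transcription factor, had values of 270.3 and 399.6 without drug and was listed at 0 in both treated libraries. KLF2, a zinc finger transcription factor, had untreated values of 113 and 195, and MAGEL2, a gene of the MAGE family, had 142 and 131. Both were also listed at 0 in both treated libraries. These 3 were the only symbols with an untreated mean of at least 100 among the 73 lost genes listed at 0 in both treated libraries. A single read was worth about 0.875 in one treated library and 0.997 in the other, so that the treated values of the genes below rest on a handful of reads each.

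Of the 3213 lost genes that had an untreated mean of at least 100, a value above 0 after treatment and no overlap between treated and untreated libraries, the 12 with the largest fall are named here. FASTKD5, a mitochondrial RNA-processing protein, went from 505 and 551 to 4.37 and 0, a relative change of −6.89 ± 1.10 (SE, adjusted p = 0.000324). DDIT4, a stress-induced inhibitor of mTORC1, went from 534 and 614 to 6.98 and 0 (−6.72 ± 0.90). FBXO5, which restrains the anaphase-promoting complex, went from 531 and 619 to 0.900 and 3.77 (−6.63 ± 0.54). In all 3 both treated libraries were near 0.

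CDKN1B, the cyclin-dependent kinase inhibitor p27, had 356 and 371 without drug and 3.06 and 0 with it (−6.56 ± 0.82). EGR1, an immediate early transcription factor, had 765 and 842 against 6.12 and 3.99, a relative change of −6.13 ± 0.33 (SE, adjusted p = 2.8e-07). IER5, another immediate early gene, had 1348 and 1493 against 8.74 and 11.97 (−6.04 ± 0.41). EGR1 and IER5 had smaller errors than the genes with a 0 in one library. The remaining 6 were SERTAD3, MARS2 (the mitochondrial methionyl-tRNA synthetase), OTUD1 (a deubiquitinase), PRAG1, TENT5B and TIFA, at relative changes of −6.23 to −5.86, with 5.24 as their highest treated value and 151 as their lowest untreated one.

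The 4 short-lived transcripts that the study itself singled out were all lost. The study named MYC, WEE1 and JUN for their loss in these NUP93-KO cells. It named MCL1 for its rapid loss after triptolide in U2OS cells. None of the 4 is thus independent evidence of direction. MYC, a growth-promoting transcription factor, went from 1083 and 1164 to 27.2 and 33.6, with 2.71% left and a relative change of −4.22 ± 0.19 (SE, adjusted p = 1.68e-07). MCL1, a BCL-2 family protein that restrains apoptosis, went from 2587 and 3209 to 55.6 and 27.7 (−5.22 ± 0.37). WEE1, a kinase that holds back entry into mitosis, went from 365 and 394 to 14.6 and 23.1 (−3.35 ± 0.33). None of the 3 came near its untreated values in either treated library, and the fourth was JUN.

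The retained genes with the highest relative change were led by ANKRD30BL. Its values were 109 and 112 without drug and 865 and 752 with it, a rise on the spike-in scale of 2.85 ± 0.34 (SE, adjusted p = 2.55e-06). ANKRD30BL has close copies elsewhere in the genome, so that its reads cannot be placed with certainty. CXCL8, the chemokine interleukin-8, rose from 152 and 142 to 290.1 and 337, by 1.08 ± 0.27 on the spike-in scale (SE, adjusted p = 0.00226). ESM1, a secreted proteoglycan, rose from 202 and 204 to 404 and 442, by 1.05 ± 0.31 (SE, adjusted p = 0.00768). For each of these genes both treated libraries stood above both untreated ones. By the spike-in scale, more of their mRNA was thus present per cell after 8 h of triptolide than in untreated cells.

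GOLM2, a Golgi membrane protein, rose from 409 and 537 to 700.1 and 795, by 0.67 ± 0.22 (SE, adjusted p = 0.0175). CACNA2D1, an auxiliary subunit of voltage-gated calcium channels, rose from 220.5 and 138 to 249 and 356, with an adjusted p of 0.0492 close to the threshold. MT-ND4, a mitochondrially encoded subunit of respiratory complex I, rose from 7347 and 7707 to 10867 and 11343, by 0.56 ± 0.22 (SE, adjusted p = 0.0433). Libraries did not overlap in any of the 3.

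Other genes among those with the highest relative change were retained but did not pass on the spike-in scale. They included SKIC2, a helicase that feeds mRNA to the cytoplasmic exosome, the chemokine CCL2, ANTXR2, GRIPAP1 and the integrin ITGA4. CCL2 had values of 118 and 142 without drug and of 186 and 218 with it, a relative change of 1.58 ± 0.20 (SE, adjusted p = 5.83e-05) and a spike-in change of 0.64 ± 0.32 (adjusted p = 0.104). SKIC2 spread more, from 129.8 and 281 to 252 and 407, and its libraries overlapped on the spike-in scale but not on the relative one (1.68 ± 0.33, SE).

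**Figure D2:**
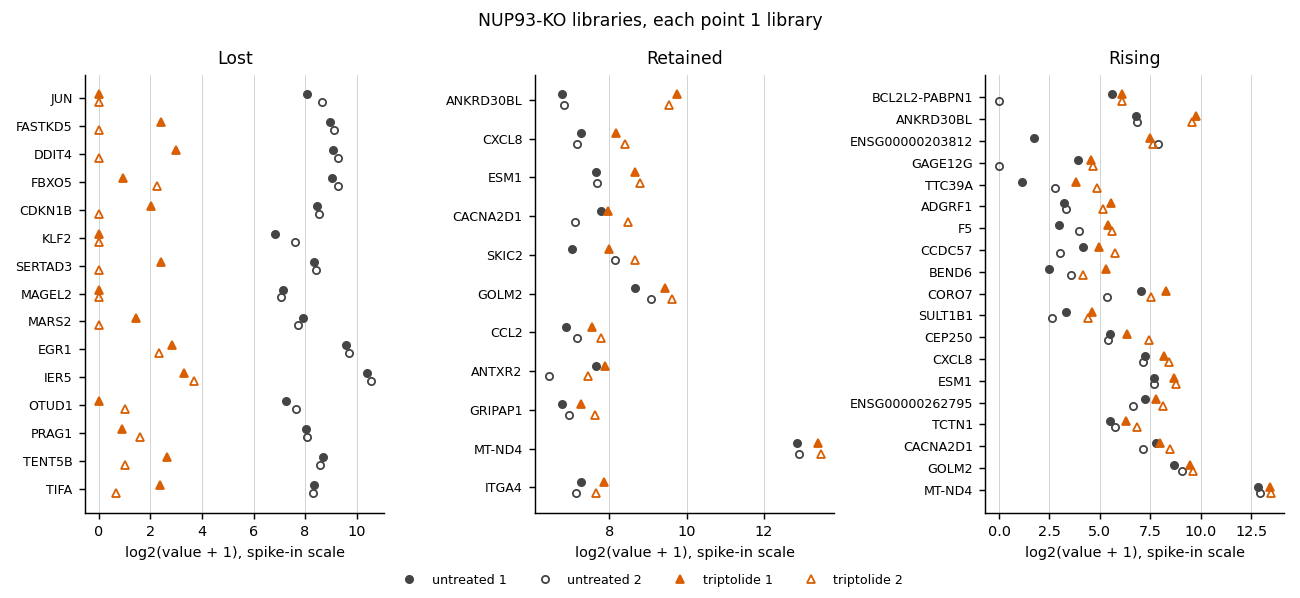
Values of the most lost, the most retained and the rising genes in the NUP93-KO libraries, as log2(value + 1) on the x axis, with circles for untreated and triangles for treated libraries and filled and open symbols for replicates 1 and 2. In the lost genes the triangles lie far left of the circles, and in ANKRD30BL, CXCL8 and ESM1 they lie to the right in both replicates, while ENSG00000203812 overlaps.

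Among the 19 genes that rose on the spike-in scale, several deserve doubt. In 18 of them both treated libraries were above both untreated ones. The exception, ENSG00000203812, had 2.32 and 237 without drug and 176 and 196 with it, and its change of 2.73 became −0.35 without untreated replicate 1 and 5.82 without untreated replicate 2. BCL2L2-PABPN1, a read-through of neighbouring genes, and GAGE12G, which has near-identical neighbours, each had an untreated library at 0. CORO7 (131 and 40.3 against 305 and 183) shares sequence with a read-through transcript. ENSG00000262795 has no symbol in the annotation used here. CEP250, a centrosomal linker protein, rose from 44.1 and 41.1 to 80.1 and 170.3, and TCTN1, a protein of the ciliary transition zone, from 44.9 and 52.6 to 78.0 and 113. The last 6, TTC39A, ADGRF1, F5, CCDC57, BEND6 and SULT1B1, had no value above 51.9 in any library. Without treated replicate 2 the number of rising genes went from 19 to 8.

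Beside the 4 genes of the study, the lists with the lowest medians were immediate early transcription factors and feedback inhibitors of signalling. Of 34 immediate early transcription factors tested, 32 were lost and 0 were retained, at a median relative change of −4.01, while over all genes tested 28.8% were lost and the median was 0.02. IER2 fell from 1208 and 1293 to 20.8 and 21.4, and FOSL2, a partner of JUN in AP-1, from 1939 and 1893 to 100.8 and 143. RELB, an NF-κB subunit, fell least, from 503 and 589 to 175 and 171. All members of the list lay below the median gene.

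Of 37 feedback inhibitors of signalling, 34 were lost (91.9%) and 1 was retained (2.70%), against 28.8% and 28.3% of all genes tested (median −3.47). ID1, an inhibitor of helix-loop-helix transcription factors, fell from 2765 and 3080 to 77.5 and 56.4. DUSP1, a phosphatase that switches off MAP kinases, fell from 879 and 888 to 10.5 and 5.97. The member retained was NFKBIB, a cytoplasmic inhibitor of NF-κB, from 247 and 269 to 179 and 192, while its relative NFKBIA was lost, from 338 and 423 to 13.1 and 3.83.

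Zinc finger genes with a numbered ZNF symbol, most of them transcriptional repressors, formed the largest list. Of 440 tested, 266 were lost (60.5%) and 13 were retained (2.95%), against 28.8% and 28.3% of all genes tested. The median relative change of the list was −1.64, with 16.2% of the untreated value left. ZNF503 fell from 323 and 367 to 1.75 and 4.98, and ZNF185 was retained, from 390.5 and 503 to 492 and 441. ZNF207, which takes part in mitosis, had 3225 and 3444 against 1556 and 1629, a relative change of −0.12 that did not pass (adjusted p = 0.166). The list thus reached from almost complete loss to no fall.

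Of 60 subunits of RNA polymerase II and general transcription factors, the machinery that triptolide acts on, 24 were retained and 17 lost (28.3%, against 28.8% of all genes tested), at a median of 0.11. The lost share was near that of all genes, and the retained count lay above the 28.3% retained among them. GTF2H3, a subunit of TFIIH, was retained, with 417 and 399.9 against 410.4 and 434. TBP, the TATA-binding protein, was lost, with 186 and 212 against 8.23 and 15.2. GTF2E1, a subunit of TFIIE, was lost too, with 257 and 223 against 5.15 and 19.2.

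Among factors of mRNA decay and splicing, more genes of each list were lost than retained. Of 17 decay factors that bind AU-rich elements or recruit deadenylases, 11 were lost (64.7%) and 2 retained (11.8%), at a median of −1.47. Over all genes tested these shares were 28.8% and 28.3%. BTG1, which promotes deadenylation, fell from 375 and 406 to 3.49 and 5.29, and RC3H2, which binds stem loops in short-lived mRNAs, was retained, from 524 and 473 to 446 and 395. Among 54 subunits of the exosome, the deadenylases and the decapping machinery, 23 were lost (42.6%) and 9 retained (16.7%), at a median of −0.23. RBM7, an exosome adaptor in the nucleus, fell from 683 and 773 to 28.6 and 23.3, and LSM5, of the ring that binds deadenylated ends, was retained, from 747 and 835 to 801 and 778. Of 30 SR proteins and related splicing factors, 16 were lost (53.3%) and 9 retained (30%), against 28.8% and 28.3% of all genes tested (median −0.46). The kinase CLK1 fell from 217 and 218 to 7.39 and 6.24, and HNRNPA2B1 was retained, from 10299.9 and 13025 to 10888 and 12157.

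Of 32 genes of the nuclear pore, to which NUP93 belongs, 11 were lost (34.4%) and 7 retained (21.9%), at a median of −0.17 and with shares near the 28.8% and 28.3% of all genes tested. NUP153, of the basket on the nuclear side, fell from 989 and 1072 to 33.9 and 26.8, a relative change of −4.10 ± 0.20 (SE, adjusted p = 2.04e-07). RANBP2, of the cytoplasmic filaments, fell from 4426 and 4662 to 1233 and 1150.1. NUP210, a membrane protein of the pore, was retained, from 204 and 242 to 209 and 201. Among 47 genes of nuclear transport and mRNA export, 19 were retained (40.4%) and 7 lost (14.9%), at a median of 0.20. Over all genes tested these shares were 28.3% and 28.8%. NXT1, a subunit of the main mRNA export receptor, fell from 307 and 308 to 9.58 and 8.91, while THOC2 of the export complex TREX was retained, from 300.1 and 426 to 342 and 399.

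Of 40 regulators of apoptosis, 21 were lost (52.5%) and 7 retained (17.5%), against 28.8% and 28.3% of all genes tested (median −0.95). Beside MCL1, which restrains death, BBC3 (PUMA), which promotes it, fell from 321 and 340.2 to 8.80 and 5.39, and FADD, the adaptor of death receptors, from 742 and 798 to 13.1 and 13.9. BAX, which permeabilises the outer mitochondrial membrane, had 1968 and 1965 without drug and 1903 and 2142 with it, and its relative change was 0.98 ± 0.12 (SE, adjusted p = 5.64e-05). CYCS, cytochrome c, was retained too, from 4597 and 5278 to 4253 and 4930.1. Of 29 p53 targets, 15 were lost (51.7%) and 10 retained (34.5%), against 28.8% and 28.3% of all genes tested (median −0.65). BTG2 fell from 609 and 692 to 14.7 and 5.92 and CD82 was retained, from 1376 and 1486 to 1653 and 1577.

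In the cell cycle, 23 of 33 genes of mitosis and the kinetochore were lost (69.7%) and 5 retained (15.2%), at a median of −0.62. Over all genes tested these shares were 28.8% and 28.3%. INCENP, of the chromosomal passenger complex, fell from 1554 and 1402 to 93.8 and 90.3, and AURKA, a spindle kinase, from 2298 and 2917 to 186 and 149.8. NUF2, an outer kinetochore protein, was retained, from 449.6 and 518 to 341 and 428. Of 44 DNA replication genes, 16 were retained (36.4%) and 13 lost (29.5%), against 28.3% and 28.8% of all genes tested (median 0.13). GINS1, a subunit of the replicative helicase, fell from 302 and 263 to 16.8 and 12.7, and POLD2, of DNA polymerase delta, was retained, from 2468 and 2547 to 2262 and 2500.3. Only 20 replication-dependent histone genes could be tested, and 3 were retained and 2 lost (median −0.02). Their mRNAs mostly lack a poly(A) tail and share sequence, so that their values in poly(A)-selected libraries are uncertain.

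Translation stood at the other end. Of 86 cytosolic ribosomal protein genes, 82 were retained (95.3%, against 28.3% of all genes tested) and 0 lost. Their median relative change was 0.85, at a median of 93.7% of the untreated value. RPLP0 had 37103 and 38980 without drug and 33742 and 35601 with it. With untested members included, the 89 genes of the list took 7.08% and 7.09% of the summed values of all genes in the untreated libraries. In the treated ones they took 9.70% and 9.92%. RPS9, with 211 and 1046 against 899 and 632, did not pass, and its untreated replicates lay far apart. Of 43 initiation and elongation factors, 32 were retained (74.4%) and 5 lost (11.6%), at a median of 0.54. PABPC1, the poly(A)-binding protein, had 31606 and 33446 against 31701 and 34271, and EIF1B fell from 449 and 489.6 to 45.3 and 33.6. The making of ribosomes differed from ribosomes themselves: of 69 ribosome biogenesis genes, 39 were lost (56.5%) and 17 retained (24.6%), at a median of −0.48. Over all genes tested these shares were 28.8% and 28.3%. IMP3 of the small subunit processome fell from 819 and 969 to 30.4 and 30.6. NPM1, a nucleolar chaperone, was retained, from 22089 and 27779 to 18617 and 20234.

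Genes of energy metabolism were retained. Of the 13 mitochondrially encoded mRNAs, 12 were retained (92.3%, against 28.3% of all genes tested) and 0 lost. The 13 had a median relative change of 1.22 and a median of 121% of the untreated value. MT-CO1, a core subunit of cytochrome oxidase, had 18464 and 17497 without drug and 23496 and 22189 with it. Its treated values were both higher, though its spike-in change of 0.35 ± 0.23 (SE, adjusted p = 0.217) did not pass, and MT-ND4 was the only member that did. Of 78 respiratory chain genes encoded in the nucleus, 75 were retained (96.2%) and 2 lost (2.56%), at a median of 0.80. ATP5F1B, of ATP synthase, had 8704 and 9882 against 8201 and 9221, and NDUFV3, of complex I, fell from 362 and 319.9 to 58.2 and 70.8. Of 17 glycolytic enzymes, 15 were retained (88.2%) and 0 lost (median 0.75). GAPDH had 64052 and 69964 against 55448 and 59774, and HK2, the hexokinase that opens the pathway, had 672 and 759 against 293 and 363, a relative change of −0.18 that did not pass (adjusted p = 0.174). Of 78 mitochondrial ribosomal proteins, 28 were retained (35.9%) and 24 lost (30.8%), at a median of 0.10 and with shares near those of all genes, and MRPL44 fell from 474 and 486 to 27.9 and 36.8.

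Genes of the matrix, the lysosome and the cytoskeleton were also retained. Of 29 collagen and extracellular matrix genes, 22 were retained (75.9%) and 1 lost (3.45%), against 28.3% and 28.8% of all genes tested (median 0.89). COL6A3, a chain of collagen VI, had 5114 and 5792 against 6208 and 6558, and COL1A1, of collagen I, 23577 and 28122 against 17701 and 20459. The member lost was THBS1, thrombospondin 1, from 12738 and 12475 to 5994 and 5724, close to the threshold (relative change −0.16 ± 0.06, SE, adjusted p = 0.0474). Of 31 lysosomal genes, 26 were retained (83.9%) and 1 lost (3.23%), at a median of 0.87. LIPA, the acid lipase, had 477 and 527 against 522 and 673, and NPC1, a cholesterol transporter, fell from 952 and 1039 to 273 and 302. Of 40 genes of the cytoskeleton and adhesion, 31 were retained (77.5%) and 5 lost (12.5%), at a median of 0.60. ITGAV, an integrin chain, had 2286 and 2814 against 3282 and 3164. TUBB4B, a beta-tubulin, fell from 14028 and 15104 to 3874 and 3859.

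Proteasome subunits were mostly retained, while heat shock chaperones went both ways. Of 37 proteasome subunits, 28 were retained (75.7%) and 2 lost (5.41%), against 28.3% and 28.8% of all genes tested (median 0.54). PSMA7 had 5422 and 5768 against 4753 and 5389. Of 38 heat shock chaperones, 20 were retained (52.6%) and 13 lost (34.2%), against 28.3% and 28.8% of all genes tested (median 0.43). DNAJB1, an inducible partner of HSP70, fell from 3012 and 3283 to 78.4 and 38.4, while HSP90B1, the HSP90 of the endoplasmic reticulum, was retained, from 6688 and 8795 to 7611 and 9172. Of 26 sterol synthesis genes, 10 were lost (38.5%) and 8 retained (30.8%), against 28.8% and 28.3% of all genes tested (median −0.05). SQLE, squalene epoxidase, fell from 2876 and 3321 to 230.0 and 277. SREBF2, the regulator of the pathway, was retained, from 4702 and 4931 to 4547 and 4693. Of 21 circadian clock genes, 13 were lost (61.9%) and 3 retained (14.3%), against 28.8% and 28.3% of all genes tested (median −1.28). NFIL3, a repressor, fell from 216 and 251 to 8.73 and 4.98, and NPAS2, a partner of BMAL1, was retained, from 311 and 212 to 356 and 362.

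**Figure D3:**
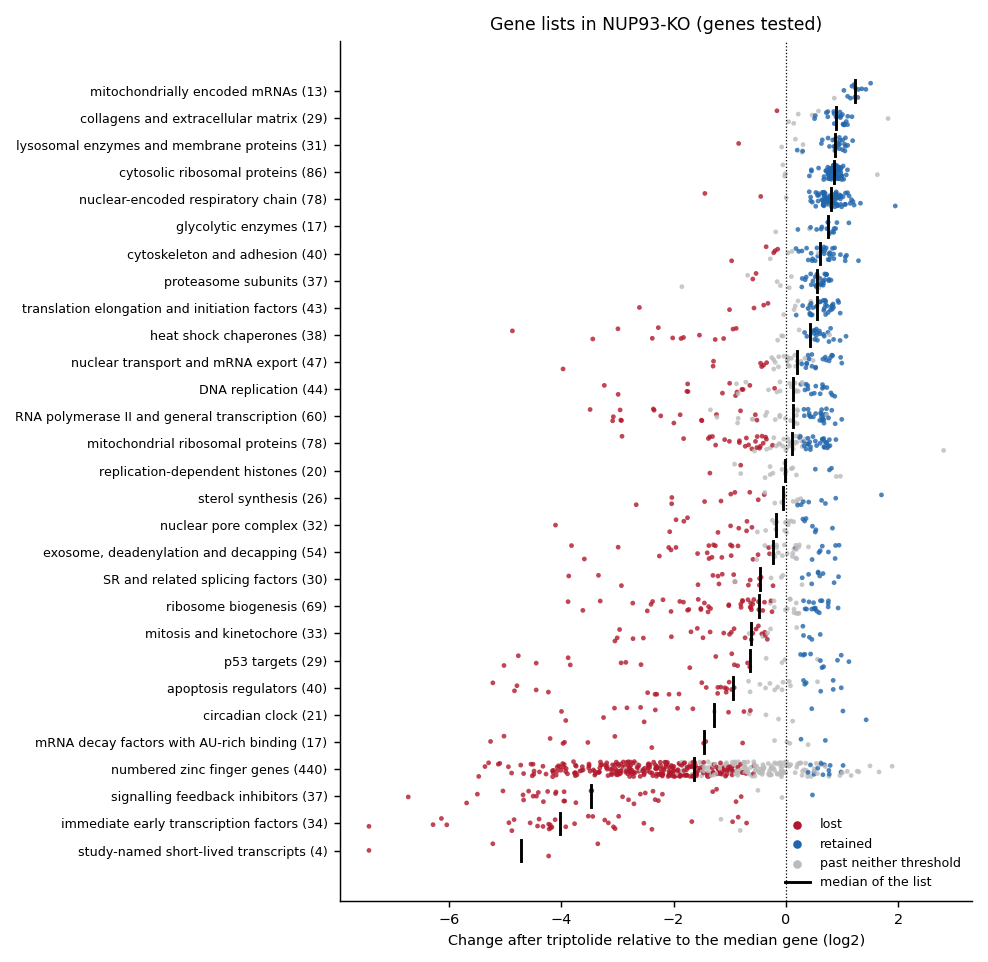
Change relative to the median gene in NUP93-KO cells for the tested members of 29 gene lists, with a point per gene coloured by class, a bar at the median of each list and the log2 change on the x axis. Immediate early transcription factors lie far to the left with a median of −4.01 and mitochondrially encoded mRNAs to the right with a median of 1.22, and lists such as the heat shock chaperones reach across both sides.

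All of these directions are relative to the median gene. When each library was instead scaled to the same sum of the 13 mitochondrially encoded mRNAs, 10 genes were above 0 and 10568 below, and 44 of the genes picked by the naming rule went from above to below 0, among them RPLP0, GAPDH, BAX, COL6A3 and PABPC1. The transcripts with the largest treated values, which are not divided by transcript length, were ACTB, EEF1A1, GAPDH, PKM and HSP90AB1. ACTB, beta-actin, went from 115144 and 118416 to 78835 and 80901, with 68.4% left, close to the 67.4% of the whole pool.

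Retained and lost transcripts differed in their structure, which the grouping did not use. For 12989 tested genes the annotation (GENCODE release 44, GRCh38) gave 1 reference transcript each. The feature that followed the relative change most closely was the number of exon junctions per kilobase of coding sequence, with a Spearman rho of 0.43 across genes. The relation was not particular to NUP93-KO cells, with a rho of 0.43 in NONT and 0.40 in EXOSC5-KO cells. The genes share libraries and are not replicates, so this is a description. Lost genes had a median of 3.93 junctions per kilobase, retained genes 7.22 and all genes 6.03. In genes with no junction in the coding sequence (783 genes) the median relative change was −1.41, with 59.0% lost and 8.94% retained, and in those with 10 or more per kilobase (759 genes) it was 0.58, with 8.96% lost and 53.6% retained. The relation held when only genes with an untreated mean of at least 100 were taken (rho = 0.44), a restriction chosen after seeing the data.

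Genes with a single exon, none of which has a junction, had a similar median relative change of −1.42. Of 284, 177 were lost (62.3%) and 31 retained (10.9%), against 28.8% and 28.3% of all genes tested. Of those 31, 12 were the mitochondrially encoded mRNAs, which have no introns. The number of exons on its own was tied more loosely to the change (rho = 0.20), as was the untreated level (0.16). Length went the other way, with rho of −0.17 for the 3′ untranslated region (3′UTR), −0.17 for the whole transcript and −0.11 for the coding sequence. For the 3′UTR it was −0.17 in NONT and −0.19 in EXOSC5-KO cells. Genes with a 3′UTR under 250 bases (1460 genes) had a median relative change of 0.44, and those with 4000 bases or more (1861 genes) −0.18. The median 3′UTR was 1632 bases in lost genes and 928 in retained ones. GC content was hardly related (rho = 0.03).

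**Figure D4:**
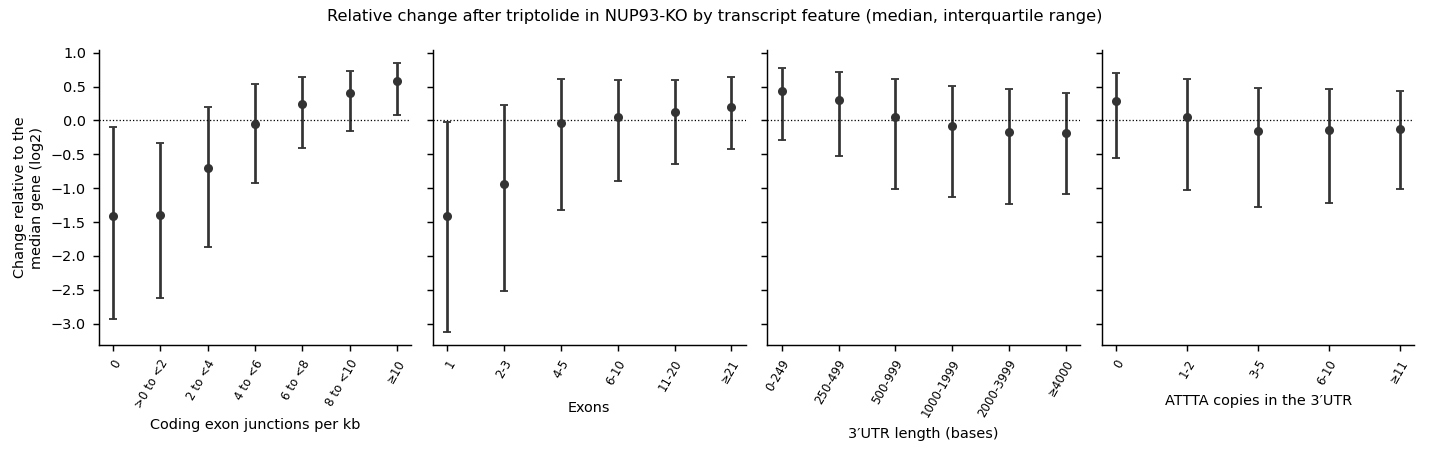
Change relative to the median gene in NUP93-KO cells (log2, y axis) by classes of coding exon junctions per kilobase, number of exons, 3′UTR length and ATTTA copies (x axes of the 4 panels), with points for medians and bars for interquartile ranges over genes. The median goes from −1.41 in genes with no coding exon junction to 0.58 in those with 10 or more per kilobase, and from 0.44 to −0.18 from the shortest to the longest 3′UTRs.

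AU-rich elements are short A- and U-rich stretches of 3′UTRs by which proteins can speed the decay of mRNAs such as those of cytokines and immediate early genes. The heptamer TATTTAT, searched on the sense strand and with overlapping matches allowed, was present in the 3′UTR of 41.2% of lost, 28.6% of retained and 36.7% of all genes with a reference transcript. Its reverse complement ATAAATA, of the same base composition, was present in 33.4%, 26.4% and 31.8%. Since long 3′UTRs hold more matches of any short motif, the pentamer ATTTA was also counted per kilobase, and then its rho with the relative change was −0.06, against −0.04 for its reverse complement TAAAT. The windows shown are the first match, in capitals, with its neighbouring bases in the 3′UTR of 4 lost genes and of 4 genes that were retained or rose, because the motif stands in transcripts at both ends of the response. They lie at chr1:58780822-58780844 (JUN, minus strand), chr12:12721536-12721558 (CDKN1B, plus), chr1:150575810-150575832 (MCL1, minus), chr1:203307531-203307553 (BTG2, plus), chr4:73742667-73742689 (CXCL8, plus), chr5:54978542-54978564 (ESM1, minus), chr15:44414371-44414393 (GOLM2, plus) and chr2:186678105-186678127 (ITGAV, plus) of GRCh38, and a match is a description, not a site shown to act.
JUN, lost: cttatgaaTATTTATaacagcat
CDKN1B, lost: ataattgcTATTTATttttacaa
MCL1, lost: tctacagaTATTTATatcaattc
BTG2, lost: tgaagagcTATTTATatatatta
CXCL8, rising: taaagtatTATTTATttgaatct
ESM1, rising: aaggtaaaTATTTATatattttt
GOLM2, rising: cataacagTATTTATgagttata
ITGAV, retained: ccaaagcaTATTTATtccattgt

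The response was then set against that of the other genotypes, to find transcripts whose place relative to the median gene differed. The fall of the median gene was −0.92 in NUP93-KO, −1.62 in NONT and −1.08 in EXOSC5-KO cells. On the spike-in scale 105 genes responded higher in NUP93-KO than in NONT cells (0.760%; 5709 at an unadjusted p under 0.05) and 2 lower (0.0145%). The number of higher genes was unstable, with 4 when no filter on low values was set and 1051 at an untreated mean of at least 50. It also moved when single libraries of each genotype were left out, and the cause was not tested. Relative to the median gene, 3 genes responded higher in NUP93-KO than in NONT cells (0.0217%; 822 unadjusted) and 1 lower (0.00724%; 482 unadjusted). Against EXOSC5-KO cells these were 3 (0.0217%; 663 unadjusted) and 5 (0.0362%; 652 unadjusted). With so few calls, whether the rest of the transcripts responded alike was not shown.

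MYC was the gene called against both. Its treated values of 27.2 and 33.6 in NUP93-KO cells compare with 2.39 and 1.74 in NONT and 5.18 and 5.29 in EXOSC5-KO cells, from untreated values of 1083 and 1164, 870 and 1431, and 1236 and 1208. MYC was thus lost in every genotype, but less deeply in both treated NUP93-KO libraries than in any of the others. The difference in relative response was 2.62 ± 0.27 against NONT (SE, adjusted p = 0.0210) and 2.28 ± 0.27 against EXOSC5-KO (adjusted p = 0.0284).

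GADD45A, a stress-response gene that p53 induces, had treated values of 143 and 155 in NUP93-KO cells (untreated 854 and 1049) against 25.3 and 22.5 in NONT cells (untreated 645 and 935), a difference of 1.58 ± 0.17 (SE, adjusted p = 0.0210). COL12A1, a chain of collagen XII, had 1659 and 1979 without drug and 1948 and 2087 with it in NUP93-KO cells, whereas NONT cells went from 2257 and 3929 down to 1079 and 814, a difference of 1.09 ± 0.14 (SE, adjusted p = 0.0467) that passed in 5 of the 24 alternatives run, with adjusted p-values up to 0.983. HMOX1, heme oxygenase 1, kept 80.8 and 86.1 in NUP93-KO cells (untreated 1228 and 1388) against 16.6 and 26.8 in EXOSC5-KO cells (untreated 1737 and 1601), a difference of 2.12 ± 0.28 (SE, adjusted p = 0.0328). AHCTF1, the nuclear pore protein ELYS, kept 183 and 186 against 95.8 and 109 (untreated 1286 and 1488, and 1924 and 1675), a difference of 1.05 ± 0.15 (SE, adjusted p = 0.0481). In each of these 4 both treated NUP93-KO values were above both treated values of the genotype compared.

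Other genes fell further in NUP93-KO than in EXOSC5-KO cells. C11orf68 was at 118 and 126 in treated NUP93-KO cells (untreated 1174 and 1171) against 462 and 417 in treated EXOSC5-KO cells (untreated 1763 and 1533), a difference of −1.52 ± 0.15 (SE, adjusted p = 0.0113). ZSCAN31, a zinc finger protein, was lost in NUP93-KO cells and at the median gene in EXOSC5-KO cells (−1.503 ± 0.18, SE, adjusted p = 0.0284). BCAR1, a scaffold of focal adhesions, and YTHDF2, a reader of N6-methyladenosine that promotes mRNA decay, differed by −1.06 ± 0.14 (adjusted p = 0.0328) and −1.003 ± 0.14 (adjusted p = 0.0491). YTHDF2 was at 104 and 119 in treated NUP93-KO cells (untreated 1640.1 and 1824) against 251 and 285 in treated EXOSC5-KO cells (untreated 2539 and 2123). A pair of further calls rests on untreated values near 0 in the other genotype: ZNF526 had 0 and 1.22 in untreated EXOSC5-KO cells, and ENSG00000250264 was listed at 0 in both untreated NONT libraries.

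**Figure D5:**
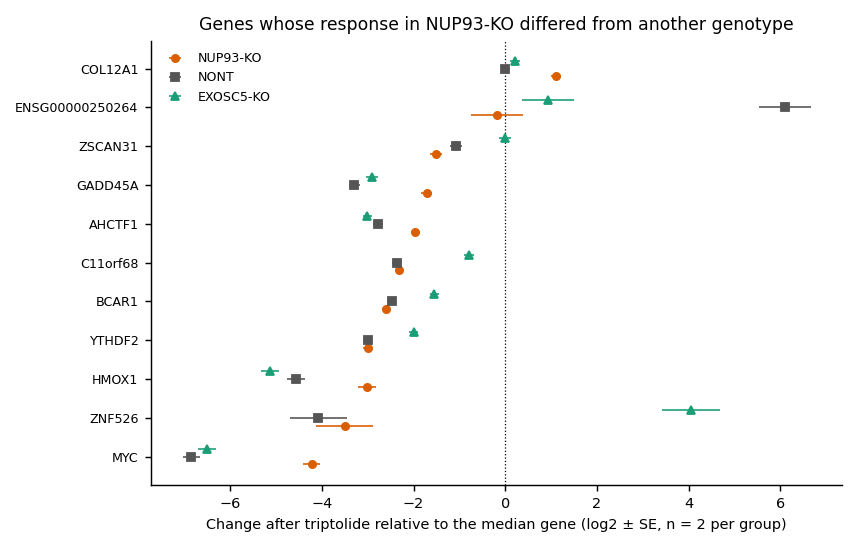
Change relative to the median gene (log2, x axis) for the 11 genes whose response differed between genotypes (y axis), with a circle for NUP93-KO, a square for NONT and a triangle for EXOSC5-KO cells and bars of 1 SE. MYC lies furthest right in NUP93-KO cells, at −4.22 against −6.85 in NONT and −6.50 in EXOSC5-KO cells, and the far right points of ENSG00000250264 and ZNF526 rest on untreated values near 0.

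The medians of the gene lists are set beside those of the other genotypes as values only, without a test of their differences. Cytosolic ribosomal proteins had 0.85 in NUP93-KO, 0.90 in NONT and 0.84 in EXOSC5-KO cells. The 8 lists whose median lay furthest from that in NONT were the transcripts named by the study (−4.72 against −6.16 in NONT and −5.61 in EXOSC5-KO cells), the AU-rich decay factors (−1.47 against −2.12 and −1.99), the feedback inhibitors (−3.47 against −4.07 and −3.55), the clock genes (−1.28 against −0.68 and −1.14), the matrix genes (0.89 against 0.37 and 0.45), the histones (−0.02 against 0.42 and 0.14), the immediate early factors (−4.01 against −4.41 and −4.06) and the lysosomal genes (0.87 against 0.53 and 0.59). The NUP93-KO median was higher in 6 of the 8, and lower for the clock genes and the histones. COL12A1 was the only matrix gene whose difference from NONT passed the test, and no lysosomal gene or AU-rich decay factor passed in either comparison.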

How the data were processed

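Poly(A) RNA from 12 libraries of U2OS cells was analysed, 2 in each of 6 groups as labelled by the submitters. From counted cells with added ERCC spike-in RNA, the authors pseudoaligned reads with kallisto 0.46.1 to the GRCh38 cDNA, summarised genes with tximport and divided by DESeq2 size factors from the ERCC rows alone. The deposited values are thus signal normalised to spike-ins, not counts, and an error in counting cells or adding spike-ins moves all genes of a library together. kallisto divides reads between near-identical copies, and 474 tested rows were identical to another row.

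The 92 ERCC rows were left out, and genes averaging 10 or more in the untreated libraries were tested on log2(value + 1) with limma 3.58.1 in R 4.3.3 (6 group means over 12 libraries, 6 residual degrees of freedom, eBayes with trend, two-sided, Benjamini-Hochberg over 13811 genes, threshold 0.05). For changes relative to the median gene, each library's median deviation from the gene means was subtracted first. The differences in response were interaction contrasts of the same fit. Scripts were tested on simulated data. Symbols and transcripts came from GENCODE release 44, and 898 tested rows had no symbol. Summaries and figures used Python 3.11.15, NumPy 2.4.6, pandas 2.3.3 and matplotlib 3.10.9.

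Genes were named by rule: NUP93 and 4 genes of the study; the 12 most lost and 12 most retained with an untreated mean of at least 100 and no overlap of libraries; up to 12 rising genes with a treated mean of at least 50; up to 6 differing per direction and genotype; for each of 29 gene lists the most abundant, highest and lowest member with an untreated mean of at least 50; and the 5 largest treated values. IER2, DUSP1, NFKBIA, TBP, BBC3, FADD, AURKA and the other rising genes were named after their values were seen. A few genes that these rules name are not reported here. The genotype, the gene lists and these rules were chosen with earlier results of these data known. Alternatives were other pseudocounts, filters, scalings and samples, the fit without trend, a block on the replicate number and leaving out each library.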

Additional observations from a re-analysis of the deposited data

Results flagged for a closer look

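Chosen because a test of the difference in response between genotypes passed the threshold relative to the median gene, 12 comparisons in 11 genes are listed here as log2 differences, NUP93-KO minus the other genotype. Against NONT these were MYC (2.62), GADD45A (1.58), COL12A1 (1.09) and ENSG00000250264 (−6.28, with both untreated NONT libraries listed at 0). Against EXOSC5-KO these were MYC (2.28), HMOX1 (2.12), AHCTF1 (1.05), YTHDF2 (−1.003), BCAR1 (−1.06), ZSCAN31 (−1.503), C11orf68 (−1.52) and ZNF526 (−7.56, with untreated EXOSC5-KO values of 0 and 1.22). None of these differences changed sign under the alternatives run, but none passed in all of them. MYC against NONT passed in 14 of 24, with adjusted p-values up to 0.178 and a difference of 1.11 at a pseudocount of 10. MYC against EXOSC5-KO passed in 13, C11orf68 in 18 and COL12A1 in 5 of 24. AHCTF1 and YTHDF2 each passed in 8, BCAR1 and ZSCAN31 in 11, GADD45A and HMOX1 in 13 and ZNF526 in 15 of 24. ENSG00000250264 passed in 9 of those run for it. Each library was left out in turn, but with 2 libraries per group this cannot tell which of them is the outlying one.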

How the results depend on the processing

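Counts of retained and lost genes stayed within 1.5 times of 3906 and 3973, and lower genes of 7603, under the alternatives run other than those given here. Leaving out 1 library each gave 3291 to 3962 retained, 3354 to 4050 lost, 5858 to 8330 lower and 8 to 27 rising genes, a total of 64.2% to 70.9% and a median change of −0.996 to −0.863. The 19 rising genes became 34 with the NUP93-KO libraries alone, 66 with no filter, 12 at an untreated mean of at least 50 and 18 when libraries must not overlap (added after seeing the data). Equal totals gave 1922 rising genes and 1922 retained, a median-of-ratios scale 3681 rising and 4101 lower genes, a total of 126% and a median change of −0.030, and equal mitochondrial mRNA sums 10 rising, 10 retained and 10568 lost genes, a total of 54.6% and a median change of −1.22. On these scales a change of 0 is defined by the libraries' own mRNA. Subtracting the median change afterwards left 2481 retained genes, and a pseudocount of 10 gave a median change of −0.80.

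Differences between genotypes moved most. Against NONT on the spike-in scale, the 105 higher and 2 lower genes became 4 and 0 with no filter, 0 and 0 without trend, 716 and 4 with symbols only, 1051 and 5 at a mean of at least 50, 2 and 0 at equal totals, 1 and 1 at equal mitochondrial sums and 2 and 0 by median of ratios, and 0 to 7040 and 0 to 32 without 1 library. Relative to the median gene, the 3 higher became 0 and the 1 lower 0 at a pseudocount of 10, the 1 lower also 0 with no filter, without trend and at a mean of at least 50, with 0 to 52 and 0 to 5 without 1 library. Against EXOSC5-KO on the spike-in scale, the 2 higher became 1 without trend, 5 at a pseudocount of 10 and 0 at equal mitochondrial sums, and the 1 lower 6 at equal totals and 5 by median of ratios, with 1 to 16 and 1 to 9 without 1 library. Relative to the median gene, the 3 higher became 5 at a pseudocount of 10, with symbols only and at a mean of at least 50, and the 5 lower became 1 without trend, with 0 to 9 and 0 to 15 without 1 library. The cause of these moves was not tested.

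No pairing of samples by replicate number was detected: deviations of same-numbered libraries from their group means correlated at −0.004 in NUP93-KO, 0.006 in NONT and 0.002 in EXOSC5-KO cells. The labels do not say whether same-numbered samples were paired, and these values cannot show that they were not. With a replicate block there were 32 rising genes, 339 higher and 20 lower against NONT and 46 and 23 against EXOSC5-KO on the spike-in scale, and 0 and 0 against NONT and 0 and 0 against EXOSC5-KO relative to the median gene.

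For single genes, 3066 recomputed values kept direction and side of the threshold, 343 no longer passed, 25 newly passed and 49 changed sign. At equal totals the sign changed for NUP93 (−0.076), RRM2 (−0.11), SMG5 (−0.21) and CCNG1 (−0.12). Without untreated NUP93-KO replicate 1, ENSG00000203812 went to −0.35, and without untreated replicate 2 to 5.82. At equal mitochondrial sums it changed for ACTB (−0.85), ATP5F1B (−0.40), BAX (−0.26), CCNG1 (−0.99), CD82 (−0.13), COL1A1 (−0.74), COL6A3 (−0.073), CYCS (−0.41), EEF1A1 (−0.50), GAPDH (−0.52), GTF2H3 (−0.25), H2BC12 (−0.72), HNRNPA1 (−0.65), HNRNPA2B1 (−0.31), HNRNPD (−0.85), HSP90AB1 (−0.73), HSP90B1 (−0.18), LIPA (−0.060), LSM5 (−0.30), MRPL24 (−0.36), MRPL3 (−0.86), MT-CO3 (−0.22), NFKBIB (−0.77), NOP58 (−0.32), NPM1 (−0.65), NUF2 (−0.64), NUP210 (−0.42), NUP93 (−0.95), PABPC1 (−0.28), PFKM (−0.13), PKM (−0.40), POLD2 (−0.38), PSAP (−0.21), PSMA7 (−0.45), PSMD2 (−0.56), RAN (−0.79), RC3H2 (−0.55), RPLP0 (−0.44), RRM2 (−0.98), SMG5 (−1.08), SREBF2 (−0.36), SSRP1 (−0.61), THOC2 (−0.25) and ZNF185 (−0.23). Of the rising genes, CXCL8, ESM1 and ANKRD30BL passed under all 24 alternatives, with adjusted p-values up to 0.0305, 0.0460 and 0.000418, and MT-ND4 in 12 and CACNA2D1 in 11 of 24. Depth limits the most strongly lost genes, whose treated values rest on few reads.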

Other observations

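The 502 tested genes of the X chromosome had a median relative change of 0.37 in NUP93-KO cells, with 37.3% retained and 19.5% lost, and the medians of the other nuclear chromosomes lay between −0.07 and 0.15. Chromosome 19 was split in itself. Its 208 numbered zinc finger genes had a median of −1.82, with 56.3% lost and 1.92% retained, and its 742 other genes had a median of 0.26, with 25.2% lost and 36.3% retained. The 232 numbered zinc finger genes on other chromosomes had a median of −1.54. RUNX2, the master transcription factor of bone formation and a marker of this line, went from 318 and 321 to 28.4 and 24.4. MDM2, the ubiquitin ligase that p53 induces and that degrades it, went from 1252 and 1202 to 383 and 433, and CDKN1A, the inhibitor p21, from 4317 and 4577 to 1258 and 1283, both lost relative to the median gene (adjusted p = 0.00242 and 3.94e-07). These genes and chromosomes were chosen after their values were seen.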
